A study of Mus musculus with 6 samples.

Results

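Transcripts of the STAT transcription factors and of the SOCS proteins that restrain them were examined in CT26 cells, a colon carcinoma line of BALB/c mice. The 9 genes were Stat2, Stat3, Stat4, Stat5a, Stat5b, Stat6, Socs1, Socs2 and Socs3. They were measured by every probe set whose single gene symbol in the array annotation was one of these, which gave 23 of the 45037 probe sets tested and 9 of 18193 genes. The shSep15 group held 3 samples of cells transfected with the vector pU6-m3 carrying a short hairpin RNA against Sep15 (current symbol Selenof, a selenoprotein of the endoplasmic reticulum). The control group held 3 samples transfected with empty pU6-m3. Each sample took 1 expression array, the Affymetrix Mouse430_2. Only 1 hairpin was used, and the labels do not say whether the cells were pools or clones or whether the 3 mRNA samples of a construct came from separate cultures, so p-values cover the spread between these samples, which may be technical. The control vector was empty, so the effect of this sequence and that of carrying any hairpin cannot be told apart. The hairpin held this 19-base stretch of the Sep15 cDNA, shown because it is the designed target.
Sep15 hairpin target: acagaagagttccatttaa

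STAT proteins wait in the cytoplasm until a cytokine brings its receptor chains together and the Janus kinases bound to them phosphorylate a receptor tyrosine, then the STAT itself. Paired STATs move to the nucleus, where most bind a palindrome known as the gamma-activated sequence (GAS), while STAT2, with IRF9 and a partner STAT, binds the interferon-stimulated response element (ISRE). SOCS genes are transcribed in response to STATs, and their proteins block the kinases or the receptors and mark them for degradation, which closes a feedback loop. In colon tumour cells STAT3 is best known as the mediator of interleukin-6 signals.

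On its brighter probe set Selenof read 9.34, 9.59 and 9.50 on the shSep15 arrays, against 12.41, 12.44 and 12.35 on the control arrays (log2), as the knockdown label says. Array medians lay between 5.83 and 5.87 (log2), and the mean correlation of an array with its own group was 0.993 to 0.995. A log2 value of 6.02, the 95th percentile of olfactory and vomeronasal receptor probe sets, is called the background level here. Of the colon epithelial markers Epcam was above that level on every array (7.38 to 7.81 in shSep15 and 7.49 to 7.78 in control samples). Its probe set is of a type that can pick up related transcripts. Cdh1 was under the level on every array, and 5 of the 10 listed markers were under it in both groups. The leukocyte marker Ptprc was under it on every array, and 9 of 16 measured leukocyte markers were under it in both groups. Others of the leukocyte list, such as Laptm5 (7.60 to 7.95) and Csf1r (6.99 to 7.53), were above it on every array. Cd68, Lyz2 and Itgam, the 3 leukocyte markers that passed the test, were lower in shSep15 samples, Cd68 with a log2 difference of −1.48 (limma adjusted p = 0.000297) and a shSep15 mean just under the background level, and Itgam was under that level in both groups; names beyond the naming rule were chosen after their values were seen. The summed linear signal of the leukocyte list ran from 1016 to 1198 on the shSep15 arrays and from 1195 to 1295 on the control arrays. That of the colon epithelial list, of which Krt18, Krt20 and Lgals4 fell and 0 rose, ran from 524 to 622 on the shSep15 arrays and from 893 to 1057 on the control arrays. Such sums rest most on the brightest genes of a list. The median log2 difference (shSep15 minus control) was −0.02 for the leukocyte list and −0.06 for the colon epithelial list. The shares called were 18.8% and 30%, against 25% of all genes. Of 6 endothelial markers 5 were under the background level in both groups, with sums of 225 to 239 on the shSep15 arrays and 229 to 235 on the control arrays. The part of these lists in the results below was not tested.

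The promoter windows of Stat2, Socs1 and Socs3, which held matches to the STAT or interferon element letters given below, are shown. Windows in the RefSeq table (GRCm38.p6) ran from 250 bases before to 50 bases after a start site. They were found for 8 of the 9 genes, 11 windows in all. Socs2 had no window and was not searched. The 250 upstream bases are printed 5′ to 3′ on the gene's strand, with capitals marking matches to the letters searched.
Stat2, chr10:128270248-128270497, plus strand: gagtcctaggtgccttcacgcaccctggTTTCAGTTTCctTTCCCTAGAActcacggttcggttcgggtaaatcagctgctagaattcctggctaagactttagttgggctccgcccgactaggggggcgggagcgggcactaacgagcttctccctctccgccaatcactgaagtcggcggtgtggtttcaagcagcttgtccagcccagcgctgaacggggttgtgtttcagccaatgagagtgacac
Socs1, chr16:10785537-10785786, minus strand: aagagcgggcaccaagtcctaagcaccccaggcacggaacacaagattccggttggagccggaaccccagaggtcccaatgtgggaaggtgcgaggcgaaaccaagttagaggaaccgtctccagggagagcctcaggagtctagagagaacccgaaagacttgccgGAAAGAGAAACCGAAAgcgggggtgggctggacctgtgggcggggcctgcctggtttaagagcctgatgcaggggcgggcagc
Socs3, chr11:117969367-117969616, minus strand: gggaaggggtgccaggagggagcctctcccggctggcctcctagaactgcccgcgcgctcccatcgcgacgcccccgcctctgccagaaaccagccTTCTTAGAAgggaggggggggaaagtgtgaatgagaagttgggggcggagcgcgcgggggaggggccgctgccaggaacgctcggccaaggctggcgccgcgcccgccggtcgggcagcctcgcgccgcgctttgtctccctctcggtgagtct

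The letters searched were TTCNNNGAA (GAS), TTCNNNNGAA (the wider spacing that STAT6 can bind) and GAAANNGAAA or its reverse complement TTTCNNTTTC (ISRE core), which cover both strands because the first pair are palindromes. Of 32851 windows of 300 bases, 8.3% held the GAS letters, 6.95% the wider spacing and 3.44% the ISRE core. Stat2 held TTTCAGTTTC, an ISRE core match starting 222 bases before the start site, and TTCCCTAGAA with the wider spacing 210 bases before it. Socs1 held the overlapping ISRE core matches GAAAGAGAAA and GAAACCGAAA, 83 and 77 bases before the start. Socs3 held the GAS match TTCTTAGAA, 154 bases before the start. One of the Stat4 windows also held an ISRE core match, and the windows of Stat3, Stat5a, Stat5b and Stat6 held no match to any of these letters. These matches describe the reference sequence and were not tested for binding.

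Of the 9 genes, Socs2, Stat5b and Stat6 fell in shSep15 cells and 0 rose, taking the brightest probe set of each gene and limma's moderated test with Benjamini-Hochberg adjustment over all probe sets at a threshold of 0.05. By probe set, 5 of the 23 fell and 0 rose, against 9.66% lower and 19.4% called in either direction among all probe sets. At an unadjusted p under 0.05 in limma, 5 genes were lower and 1, Stat4, was higher. The share of all genes at this looser threshold was not counted, so no reading is drawn from these counts. Across the series 25% of all genes passed the adjusted threshold in either direction and 12.8% fell. Among genes with a mean above the background level 39.1% passed, so 3 of 9 is not far from the share in the whole table. The median log2 difference (shSep15 minus control) of the 9 was −0.34, against 0.01 over all genes. The values of the groups did not overlap, with shSep15 lower, in 5 of the 9, Socs3 and Stat5a besides the 3 called, where 18.7% of all genes showed that pattern and 38.1% were separated in either direction. These shares and the median of 0.01 cover all genes, of which 7062 were near background in both groups, while 8 of the 9 had a mean above that level. Neither was computed for genes above background alone, so the comparison is uneven. In RNA from a whole culture, fewer cells expressing a gene and less RNA per cell cannot be told apart.

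**Figure D1:**
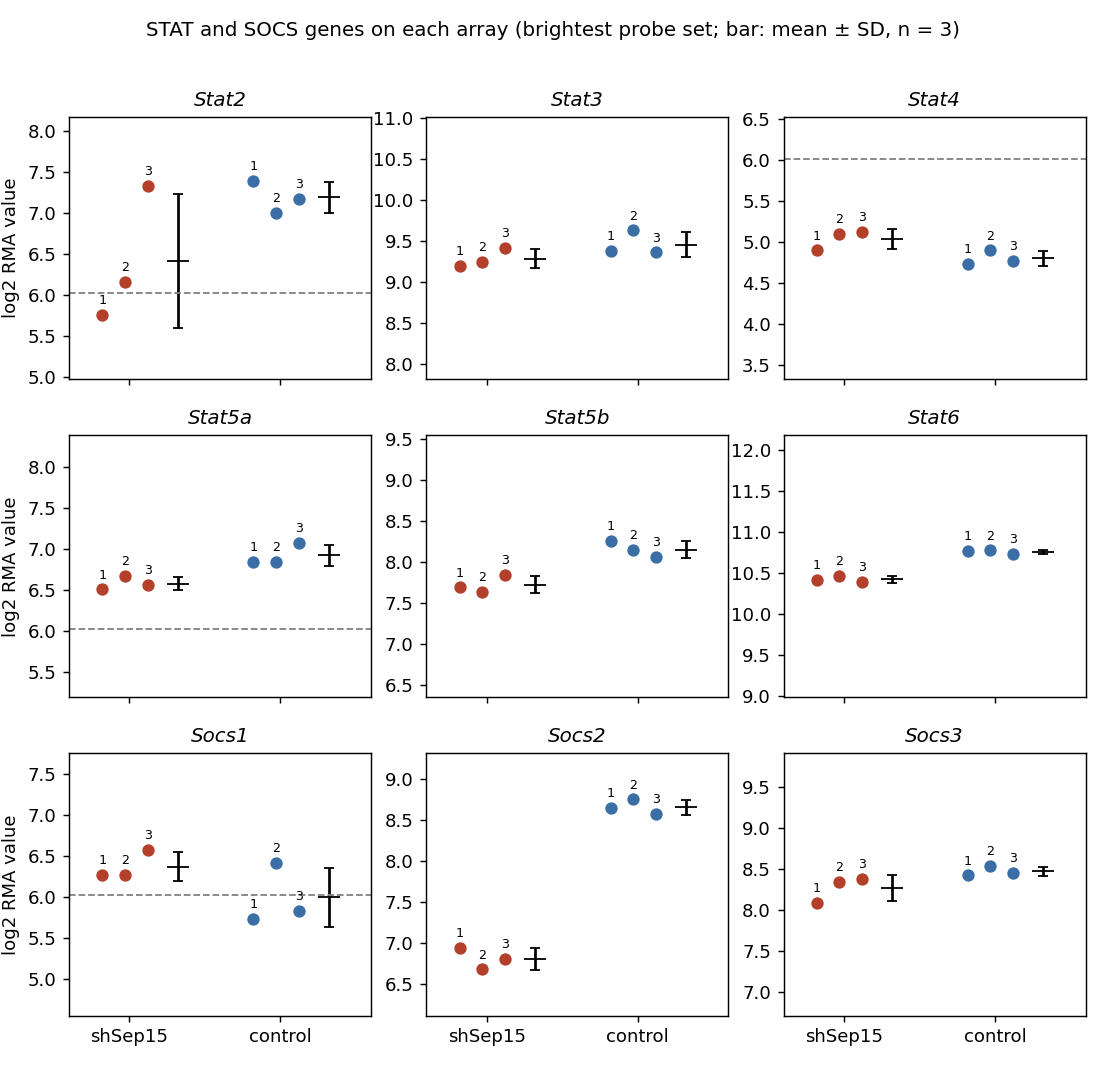
Log2 RMA value (vertical axis, equal span in each panel) of the brightest probe set of each STAT and SOCS gene on the 3 shSep15 arrays (red) and the 3 control arrays (blue), numbered by replicate, with the mean and SD beside them and the background level of 6.02 as a dashed line where it is in range. Socs2 is 6.68 to 6.94 on the shSep15 arrays and 8.57 to 8.75 on the control arrays, and Stat2 splits the shSep15 arrays.

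Among the SOCS genes, Socs2, an inhibitor best known for limiting growth hormone signals and a target of STAT5, showed the widest difference. It read 6.94, 6.68 and 6.80 on the shSep15 arrays, against 8.64, 8.75 and 8.57 on the control arrays (log2). Every shSep15 value lay more than 1 log2 unit below every control value. The log2 difference was −1.85 (SE 0.12, limma adjusted p = 1.24e-05), which left 27.8% of the control signal, and 137 of 18193 genes, 0.753%, fell as far or further. The other Socs2 probe set above the background level read 6.37, 6.35 and 6.21 on the shSep15 arrays, against 8.01, 7.66 and 7.81 on the control arrays. It fell by 1.51 (SE 0.13, limma adjusted p = 5.71e-05), so both bright probe sets separated the groups. The 4 remaining Socs2 probe sets lay near background in both groups and gave differences of −0.28 to 0.01, none past the threshold. Leaving out any 1 of the 6 arrays moved the difference between −1.92 and −1.78, with adjusted p of at most 0.000278.

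Socs3, the inhibitor of interleukin-6 family receptors and a classic STAT3 target, differed little. It read 8.09, 8.34 and 8.38 on the shSep15 arrays, against 8.42, 8.54 and 8.46 on the control arrays. The groups just failed to overlap, and the difference of −0.20 (95% interval −0.46 to 0.06, limma adjusted p = 0.317) did not pass the threshold. Its 2 other probe sets, of a type that can pick up related transcripts, gave −0.06 and −0.08, and their sign turned when replicate 2 of either group was left out.

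Socs1, which blocks the Janus kinases themselves and restrains interferon signals, was close to the background level. Its single probe set read 6.27, 6.27 and 6.57 on the shSep15 arrays, against 5.74, 6.41 and 5.83 on the control arrays. The difference of 0.37 (95% interval −0.04 to 0.79, limma adjusted p = 0.228) did not pass, with control replicate 2 inside the shSep15 range. Without control replicate 2 it was 0.58 (limma adjusted p = 0.0328).

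Of the STAT genes, Stat6, which carries interleukin-4 and interleukin-13 signals, had the tightest values. It read 10.42, 10.47 and 10.39 on the shSep15 arrays, against 10.77, 10.78 and 10.73 on the control arrays. The groups were apart although the shift was small, at −0.34 (SE 0.07, limma adjusted p = 0.00816), or 79.2% of the control signal. Its other probe set read 9.20, 9.01 and 8.93 on the shSep15 arrays, against 9.54, 9.45 and 9.55 on the control arrays, and fell by 0.47 (limma adjusted p = 0.0121). That second call ended without shSep15 replicate 3 (−0.41, limma adjusted p = 0.0566), while the call on the brighter probe set held without any 1 array, with adjusted p up to 0.0399.

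The near-identical paralogs Stat5a and Stat5b, which serve growth hormone, prolactin and several interleukins, both read lower in shSep15 cells, and 1 of them passed. Stat5b read 7.69, 7.64 and 7.84 on the shSep15 arrays, against 8.25, 8.14 and 8.05 on the control arrays. The groups did not overlap, and it fell by 0.43 (SE 0.12, limma adjusted p = 0.0296). The call ended without any 1 of shSep15 replicates 1 and 2 and control replicates 1 and 2, with adjusted p from 0.0799 to 0.0981 and differences of −0.43 to −0.38, and the second Stat5b probe set gave −0.22 (limma adjusted p = 0.242). Stat5a read 6.50, 6.67 and 6.55 on the shSep15 arrays, against 6.84, 6.84 and 7.07 on the control arrays. Its difference of −0.34 (95% interval −0.61 to −0.08, limma adjusted p = 0.0795) missed the threshold, though the groups were apart. It passed when dim probe sets were left out of the adjustment (adjusted p = 0.0432), the intensity trend was left out (adjusted p = 0.0429) or probe sets were averaged by gene (adjusted p = 0.0403). Under the other alternatives run it did not pass (limma adjusted p from 0.0665 to 0.203). The other Stat5a probe set lay near background, at 0.01. Probe sets may not keep transcripts as similar as these fully apart.

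Stat3, the factor of interleukin-6 and leukaemia inhibitory factor, did not pass on any of its 4 probe sets. The brightest read 9.20, 9.24 and 9.41 on the shSep15 arrays, against 9.38, 9.63 and 9.36 on the control arrays, and these ranges overlapped. The difference was −0.17 (95% interval −0.42 to 0.08, limma adjusted p = 0.386). The next read 9.06, 9.14 and 9.17 on the shSep15 arrays, against 9.39, 9.33 and 9.29 on the control arrays, a difference of −0.21 (limma adjusted p = 0.173) with groups that were apart. Stat4, which serves interleukin-12 in lymphocytes, stayed under the background level on every array (4.90, 5.10 and 5.13 in shSep15 and 4.73, 4.90 and 4.78 in control samples), so its difference of 0.24 (limma adjusted p = 0.141) was taken between dim signals.

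**Figure D2:**
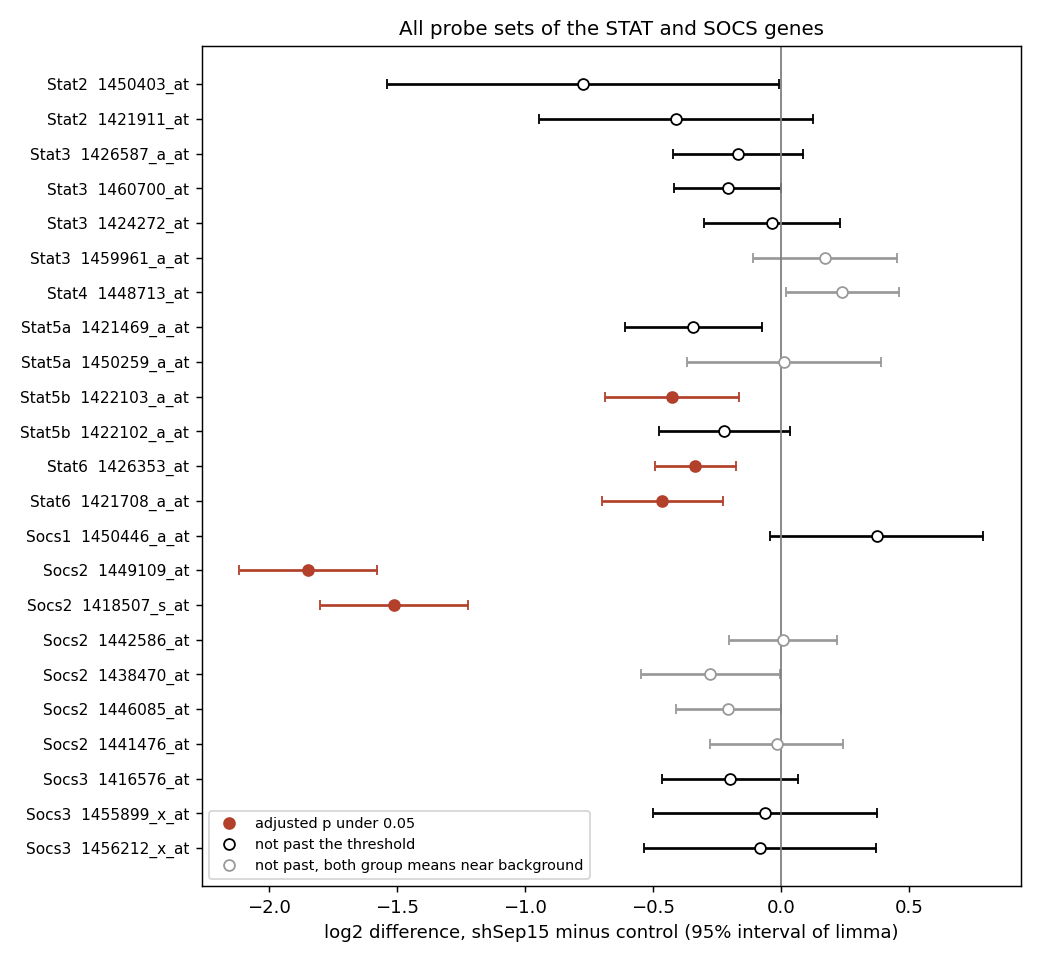
Log2 difference (shSep15 minus control, horizontal axis) with limma's 95% interval for each of the 23 STAT and SOCS probe sets, brightest first within a gene. Filled red points passed the adjusted threshold, open black points did not, and grey points had both group means near background; the 5 filled points belong to Stat5b, Stat6 and Socs2.

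Stat2, the STAT reserved for type I and III interferons, divided the shSep15 arrays. It read 5.76, 6.16 and 7.33 on shSep15 arrays 1, 2 and 3, against 7.39, 7.01 and 7.17 on the control arrays. The first was under the background level, the second just over it, and the third lay inside the control range. Over all arrays the difference was −0.78 (SE 0.34, 95% interval −1.54 to −0.01, limma adjusted p = 0.167). Without shSep15 replicate 3 it was −1.23 (limma adjusted p = 0.00373). The second Stat2 probe set had a similar layout, with 5.77, 5.95 and 6.78 on the shSep15 arrays, against 6.74, 6.51 and 6.48 on the control arrays. Here arrays 1 and 2 were both under the background level, and array 3 lay just above the highest control value. It likewise passed only without shSep15 replicate 3 among the arrays left out in turn (−0.72, limma adjusted p = 0.0135).

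Genes transcribed under the complex that contains STAT2 were also uneven between the shSep15 arrays. Of 25 listed interferon-stimulated genes 23 were measured, and 2 rose, Herc6 (0.77, limma adjusted p = 0.0101) and Ifit2 (0.60, limma adjusted p = 0.00521), while 0 fell in limma, also at an unadjusted p under 0.05. The share called was 8.7%, against 25% of all genes and 39.1% of genes above background. The median of the 23 was 0.27. Each array was then set against the control mean: among the 18 genes above background, the median deviation came to −0.33 on shSep15 array 1, −0.05 on array 2 and 1.33 on array 3, and 17 of the 18 had their highest value on array 3. Parp14 was above background only through array 3, and over the 17 genes with a control mean above background, a filter chosen after seeing the data, the medians were −0.35, −0.11 and 1.31 and 16 were highest on array 3. Irf9, which gives the STAT2 complex its DNA contact and which the naming rule did not pick, read 6.84, 7.54 and 8.63 on the shSep15 arrays, against 7.63, 7.82 and 7.84 on the control arrays. Without shSep15 replicate 3, 3 listed genes were lower, Oasl1, Oasl2 and Ifih1 (−1.08, −1.36 and −0.54), and Ifit2 and Herc6 stayed higher. The names of these 3 were chosen after their values were seen. On array 3 Stat2 was thus inside the control range on its brighter probe set and just above it on the other, while most of these genes were above their control level. On arrays 1 and 2 Stat2 lay farther below the control mean than the median of the list. The part of the interferon-stimulated genes in the Stat2 values was not tested.

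**Figure D3:**
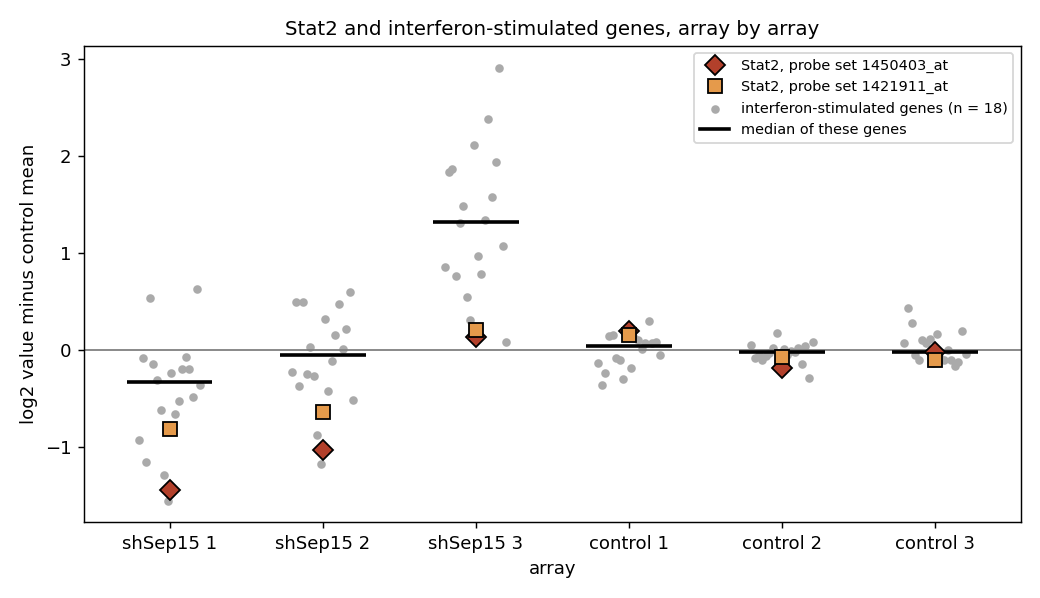
Log2 value minus the control mean (vertical axis) on each array for both Stat2 probe sets (diamond and square) and 18 interferon-stimulated genes above background (grey points, black line for their median). On shSep15 array 3 the median is 1.33 and Stat2 is near 0, and on shSep15 arrays 1 and 2 both Stat2 markers are below the medians of −0.33 and −0.05.

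Further members of the SOCS family were described from a fixed list of 5. Socs6, which acts on receptor tyrosine kinases, read 9.80, 9.62 and 9.74 on the shSep15 arrays, against 10.54, 10.59 and 10.27 on the control arrays, and fell by 0.75 (SE 0.11, limma adjusted p = 0.001). Its other probe set above background did not pass (−0.67, limma adjusted p = 0.159). Socs6 was the only one of the 5 to pass on its brightest probe set (20%, against 25% of all genes). In limma 3 were lower and 0 higher at an unadjusted p under 0.05, where the share of all genes was not counted. Socs5 gave −0.30 (limma adjusted p = 0.0632), and its second probe set was called the other way, at 0.48 (limma adjusted p = 0.0393). Socs4 gave −0.32 and Socs7 −0.46 (limma adjusted p = 0.254 and 0.0564), each with a dimmer probe set that passed as lower (−0.81 and −0.55). Cish, the founding member and a STAT5 target, gave 0.16 (limma adjusted p = 0.628) near the background level.

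Inhibitors outside the SOCS family moved in both directions. Of 10, 1 rose and 2 fell, which is 30% called against 25% of all genes, with a median of −0.02. The widest difference in this list, 1.78 for the interferon-induced Usp18, did not pass (limma adjusted p = 0.189) and rested on array 3, with 6.77, 7.58 and 10.69 on the shSep15 arrays, against 6.79, 6.74 and 6.17 on the control arrays. Pias3, named for its inhibition of STAT3, read 9.50, 9.32 and 9.46 on the shSep15 arrays, against 8.05, 8.12 and 8.09 on the control arrays. It rose by 1.34 (SE 0.10, limma adjusted p = 2.99e-05), or 2.53-fold, and its other probe set above background passed in the same direction. Pias2 and Pias4 fell by 0.44 and 0.42 (limma adjusted p = 0.00885 and 0.0147), but another Pias2 probe set rose by 0.72, and the call of Pias4 ended without shSep15 replicate 2, control replicate 1 or control replicate 2 (adjusted p from 0.0515 to 0.0611), although its other probe set above background also passed as lower.

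Of the 4 Janus kinases 1 fell, which is 25% called, the same share as among all genes. Jak2, which serves growth hormone, erythropoietin and interferon gamma receptors, read 8.62, 8.86 and 8.65 on the shSep15 arrays, against 9.67, 9.44 and 9.51 on the control arrays. It fell by 0.83 (SE 0.11, limma adjusted p = 0.000798), and its second probe set also passed as lower. Jak1, Jak3 and Tyk2 gave 0.08, 0.03 and −0.23 (limma adjusted p = 0.6, 0.926 and 0.322).

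Ligands and receptor chains that signal through STATs were often dim, and 31.6% of the ligands and 22.7% of the receptor chains passed the threshold, against 25% of all genes. Of 22 ligands 19 were measured, 10 of them near background in both groups, and 5 fell while 1 rose (median −0.06). Il6 read 4.15, 4.27 and 4.35 on the shSep15 arrays, all under the background level, against 7.56, 7.03 and 6.79 on the control arrays. It was at least 2.16-fold lower (limma adjusted p = 1.15e-05), a bound that sets the shSep15 values at the background level; the measured log2 difference was −2.87. Il23a, a STAT3 and STAT4 cytokine subunit whose gene lies next to Stat2 in the RefSeq gene order, was also under the background level on every shSep15 array and at least 1.55-fold lower (limma adjusted p = 0.00246), with a measured difference of −1.35. Clcf1, a relative of interleukin-6, fell by 0.93 (limma adjusted p = 0.0366). The call of Clcf1 ended without shSep15 replicate 2 or 3 or control replicate 1 or 2 (adjusted p from 0.123 to 0.147), while its 2 other probe sets also passed as lower. Lif and Ifnb1, which the naming rule did not pick, fell by 0.82 and 0.77 (limma adjusted p = 0.0178 and 0.00228). Ifnb1 read 5.67, 5.58 and 5.85 on the shSep15 arrays, all under the background level, against 6.44, 6.32 and 6.64 on the control arrays. Il15, a STAT5 cytokine for lymphocytes, rose by 1.15 (SE 0.19, limma adjusted p = 0.00264), with a control mean under the background level.

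Of 26 receptor chains 22 were measured, 11 near background in both groups, and 4 fell while 1 rose (median −0.09). The one that rose, Lifr (0.40, limma adjusted p = 0.0436), was under the background level in both groups and did not pass without the intensity trend. The growth hormone receptor Ghr, which signals through JAK2 and STAT5 and is inhibited by SOCS2, read 8.17, 7.87 and 8.03 on the shSep15 arrays, against 9.09, 8.72 and 8.96 on the control arrays. It fell by 0.90 (SE 0.13, limma adjusted p = 0.0013), and its 2 other probe sets above background passed in the same direction. Crlf2, the receptor for thymic stromal lymphopoietin, fell by 0.70 (limma adjusted p = 0.00134). Il6ra and Ifngr2 each fell by 0.51 (limma adjusted p = 0.0193 and 0.0389); neither had a second probe set that passed, and the mean of the Ifngr2 probe sets gave −0.22 (limma adjusted p = 0.209). Both calls ended without any 1 of shSep15 replicates 1 and 2 and control replicates 1 and 2 (adjusted p from 0.06 to 0.138), which took the count of receptor chains called to as few as 2.

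Lists of genes known from other cells as STAT targets differed in how many moved. Of 18 STAT3 targets 8 fell and 4 rose, 66.7% against 25% of all genes and 39.1% of genes above background, as 16 of these 18 were, with a median of −0.28. Lcn2, an iron-sequestering lipocalin, fell by 3.92, the transcription factors Cebpb and Fos fell by 1.32 and 1.15, and the apoptosis inhibitor and mitotic gene Birc5 rose by 1.14 (limma adjusted p from 1.73e-05 to 0.00196). The shSep15 means of Lcn2 and Fos, 5.84 and 5.94, lay under the background level, where differences are less well measured. Stat3 itself did not pass, as given above, and Socs3, which did not pass either, was not on this list. The lists were chosen with earlier results of these data known, so these shares describe them and test nothing. Of 10 STAT5 targets 1 fell, the kinase Pim1 (−1.08, limma adjusted p = 0.00308), and 1 rose, the cyclin Ccnd1 (0.42, limma adjusted p = 0.00244), both also on the STAT3 list. The share called was 20%. The median of the STAT5 list was 0.04, and Socs2 was left out of it as a gene already described. Of 12 STAT6 targets, 8 of them near background in both groups, 1 rose (8.33%), the coactivator Ppargc1b (0.51, limma adjusted p = 0.0259). That call ended without shSep15 replicate 1, 2 or 3 or control replicate 1 or 3 (adjusted p from 0.0664 to 0.094).

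**Figure D4:**
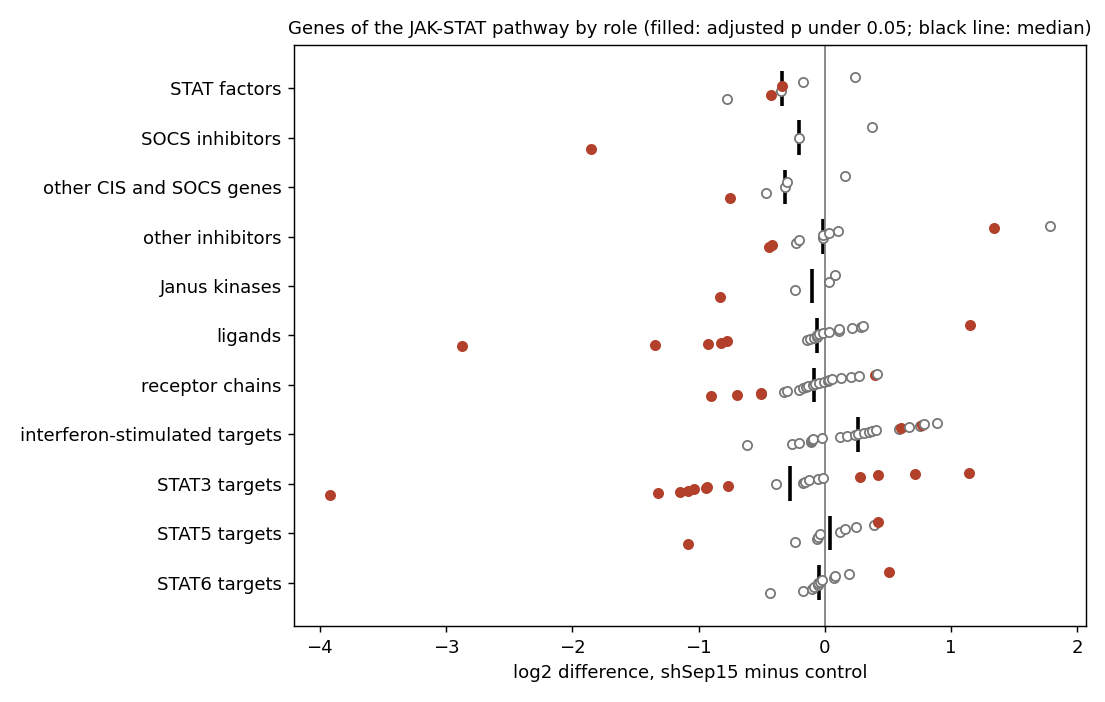
Log2 difference (shSep15 minus control, horizontal axis) of each measured gene, grouped by its role in cytokine signalling, from the brightest probe set. Filled points passed the adjusted threshold and black lines are medians, which lie at −0.34 for the STAT genes, −0.20 for Socs1 to Socs3 and −0.28 for the STAT3 targets.

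Genes with the most similar values over the 6 arrays were found for the 3 called genes by Euclidean distance between log2 values centred on each gene's mean, among 10868 genes above background; the distance reflects chiefly the difference between the groups. Socs2 lay nearest to Spry4, a feedback inhibitor of receptor tyrosine kinase signals (distance 0.19, against a median of 2.31 over all candidates), which read 8.41, 8.05 and 8.38 on the shSep15 arrays and 10.05, 10.30 and 9.96 on the control arrays. Next came Zadh2 (0.24). Stat5b lay nearest to Pias4 and Dnajb2 (0.06 and 0.07, median 0.71), and Stat6 to Anxa5 and Zfp746 (0.07 and 0.08, median 0.61).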

How the data were processed

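RNA from 3 shSep15 and 3 control samples was hybridised to 1 array each. The deposited values are log2 signals from RMA, as the submitters' processing notes name it, a method that corrects background, equalises arrays and combines probes. Its version and any filter: not given in the sources used here. Values ran from 3.31 to 14.24. They carry no detection call, and precision is limited by 3 arrays per group. After 64 array controls were set aside, 45037 probe sets were fitted with limma 3.58.1 (lmFit, eBayes with an intensity trend, group as the only term) in R 4.3.3, two-sided, with Benjamini-Hochberg adjustment over all of them; the fit was tested on simulated data. Of 34945 probe sets with 1 symbol, 34741 were matched by gene identifier to the RefSeq table (GRCm38.p6), and 932 with several symbols were not named. A gene's value is that of its brightest probe set. The background level came from 80 receptor probe sets.

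Every member was named, plus up to 4 called genes per list with the largest differences, all genes of lists of up to 5, and 2 nearest genes per called member. The members, lists and tests were chosen with earlier results of these data known. The alternatives were no trend, a replicate block, median shift, quantile normalization, dim probe sets left out, gene means and each array left out.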

Additional observations from a re-analysis of the deposited data

How the results depend on the processing

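Among recalculated counts of calls, 121 stayed within 1.5 times the reported count and 21 did not. Among recalculated differences of single genes, 500 kept their direction and their side of the threshold, 28 lost a call, 13 gained one and 12 changed sign. The calls of Socs2 and of the brighter Stat6 probe set held under every alternative run; without single arrays the counts of STAT and SOCS genes and probe sets called ranged from 2 to 4 and from 4 to 6. The other CIS and SOCS genes called numbered 3 after quantile normalization or without dim probe sets, 2 with gene means and 1 to 2 without single arrays. Receptor chains called ranged from 2 to 5 and interferon-stimulated genes from 2 to 5 without single arrays. STAT5 targets called numbered 4 without dim probe sets or with gene means, and 2 to 4 without single arrays. STAT6 targets called numbered 2 with the replicate block, the median shift, quantile normalization or gene means, and 0 to 1 without single arrays (limma, 2 at an unadjusted p under 0.05 in each). With gene means the sign turned for Socs5 (0.0887), Tyk2 (0.0025) and Pias2 (0.0928). Without single arrays, ranges crossed 0 for the third Stat3 probe set (−0.0938 to 0.0258), the dimmer Socs3 probe sets (−0.22 to 0.10 and −0.32 to 0.0812) and Jak3 (−0.0837 to 0.15). The cause of these shifts was not tested.

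Whether replicate numbers pair the samples could not be decided. Deviations of same-numbered arrays from their group means correlated at 0.38, −0.15 and −0.02, and 1 of the 3 shSep15 arrays correlated best with its own number. With 3 arrays per group such deviations constrain each other. With the replicate block 9052 probe sets were called, against 8722, and 2 STAT and SOCS genes, the adjusted p of Stat5b being 0.051 and that of Ifngr2 0.0525. With the background level at the 99th percentile, 4 of the 9 genes were near background, against 1. Dim probe sets limit what can be seen of Stat4 and Socs1.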

Other observations

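Stat3, Stat5a and Stat5b are consecutive in the RefSeq gene order of chromosome 11 among the genes measured, and Stat2 and Stat6 both lie on chromosome 10, so their neighbours were set beside them, a comparison chosen after seeing the data. Of the 10 measured genes within 5 places of Stat3, 3 fell (Stat5b, Atp6v0a1 and Coasy) and 0 rose in limma, with a median log2 difference of −0.30. The proton pump subunit Atp6v0a1, 2 places from Stat3, fell by 0.99 (limma adjusted p = 0.000422). Of the 10 around Stat6, 3 fell and 0 rose, among them its neighbours on either side, the endocytic receptor Lrp1 (−0.67, limma adjusted p = 0.0139) and the EGR corepressor Nab2 (−0.65, limma adjusted p = 0.00134). Of the 10 around Socs2, 2 fell and 2 rose, with a median of 0.00, and its adjacent measured gene Cradd gave −0.20 (limma adjusted p = 0.355). Of the 10 around Stat2, 2 fell (Il23a and Coq10a) and 1 rose, the replication fork gene Timeless (1.11, limma adjusted p = 0.000334). With the same span 2 fell and 0 rose around Stat5a, and 1 fell and 0 rose around Stat5b. These sets share genes with that of Stat3, so their counts are not independent. Atp6v0a1 was counted around Stat3, Stat5a and Stat5b, and Stat5b itself around Stat3 and Stat5a. Around Stat4 1 fell and 3 rose, and around Socs1 0 fell and 1 rose. Of the 10 around Socs3, 1 fell and 3 rose, with a median of −0.01. Among those that rose, Tk1 and Birc5, 4 and 2 places away, rose by 2.49 and 1.14, while Socs3 gave −0.20. Across all genes 12.8% fell and 12.2% rose.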
